A study of Mus musculus with 9 samples.

Results

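The NF-kB family genes described here are the 5 subunits of the transcription factor, *Nfkb1*, *Nfkb2*, *Rela*, *Relb* and *Rel*, and 5 of its inhibitors and feedback regulators, *Nfkbia*, *Nfkbib*, *Nfkbie*, *Tnfaip3* and *Bcl3*. They were taken from the files by gene name, and the 10 genes were all present among the 24341 genes listed for every sample. Their RNA was measured by sequencing poly(A)-selected RNA from mouse embryonic fibroblasts (MEFs) labelled C57BL/6 and grown in DMEM with 10% FBS. Of 9 samples, 3 were labelled WT, 3 *Atm-/-* and 3 *Sirt6-/-*, with no treatment named for any of them. Read totals per sample ran from 33156455 to 33837949 in WT, from 32228791 to 33250751 in *Atm-/-* and from 32187040 to 33259701 in *Sirt6-/-*.

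ATM is the kinase that responds to DNA double-strand breaks, and SIRT6 is a histone deacetylase. According to the labels some of the MEFs were derived from mice lacking p53, alone or together with *Atm*, but no sample is tied to such a mouse. The methods of the study speak of immortalized lines, with the line lacking both *Atm* and p53 and the line lacking *Sirt6* given by separate laboratories. *Trp53* reads were 7108, 7102 and 6563 in WT, 9081, 9127 and 9218 in *Sirt6-/-*, and 806, 946 and 928 in the samples labelled *Atm-/-*. *Sirt6* itself had 4, 5 and 7 reads in *Sirt6-/-* against 487, 402 and 472 in WT. *Atm* had more reads, not fewer, in the samples labelled *Atm-/-* (3768, 3564 and 3443) than in WT (1536, 1617 and 1627), a 2.05-fold difference, and a gene total does not show which exons were read. Groups are named below by their labels. Effects of *Atm*, of p53 and of the cell line therefore cannot be told apart in the samples labelled *Atm-/-*, and effects of *Sirt6* and of its line cannot be told apart either. No label says that samples of a group came from separate embryos or cultures, so the p-values measure the spread among these samples, which may be technical.

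NF-kB proteins work as dimers of the subunits. *Rela* (p65), *Relb* and *Rel* (c-Rel) encode subunits that carry an activation domain, whereas *Nfkb1* and *Nfkb2* encode the precursors p105 and p100, which are processed to the DNA-binding subunits p50 and p52. In resting cells IkB proteins, the products of *Nfkbia*, *Nfkbib* and *Nfkbie* among them, hold the dimers in the cytoplasm. The IKK kinases mark IkB for destruction when cytokine receptors or Toll-like receptors are engaged, and after DNA damage a nuclear pool of IKKγ (*Ikbkg*) modified by ATM carries the signal outward. Freed dimers bind κB sites and switch on, besides inflammatory genes, several genes of their own inhibitors, which closes a feedback loop. *Tnfaip3* (A20) edits ubiquitin chains upstream of IKK, and *Bcl3* encodes a nuclear IkB relative that binds p50 and p52 homodimers. SIRT6 is known to bind RelA and to remove acetyl groups from histone H3 at RelA target promoters. Transcript levels report none of the protein steps, and in bulk RNA a change in the number of cells expressing a gene cannot be told apart from a change in RNA per cell.

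Because the feedback genes are known as κB targets, their promoter sequences are shown first. RefSeq promoter windows on GRCm38.p6, each covering 250 bases before and 50 bases after a transcription start, were given for 8 of the 10 genes, not for *Nfkb1* or *Relb*. A match to the κB consensus on either strand lay in windows of 6 of the 8 (75%), *Nfkb2*, *Rel*, *Nfkbia*, *Nfkbie*, *Tnfaip3* and *Bcl3*. Over all genes with a window 5.14% of 27025 held one, and 4.51% of 32851 windows did. A match is a stretch of letters and was not measured as a bound site. The sequence upstream of *Nfkbia*, at chr12:55492648-55492897 on the minus strand, runs 5′ to 3′ with its κB match, bases -29 to -20 from the start, in capitals.
Nfkbia promoter: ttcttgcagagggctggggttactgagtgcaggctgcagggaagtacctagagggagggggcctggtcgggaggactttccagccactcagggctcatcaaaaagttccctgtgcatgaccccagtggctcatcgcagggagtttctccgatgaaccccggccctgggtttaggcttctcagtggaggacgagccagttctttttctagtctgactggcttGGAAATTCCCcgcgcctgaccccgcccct

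The other members' matches are given as 30-base stretches on the strand of the gene, with the match in capitals, so that their letters can be compared. *Nfkb2* had 4 such stretches near its several starts, at chr19:46304688-46304717, chr19:46304716-46304745, chr19:46305449-46305478 and chr19:46305695-46305724 on the plus strand. All 4 touched exons annotated in GENCODE M21, as did the second *Tnfaip3* stretch and the *Bcl3* stretch. *Rel* (chr11:23771042-23771071, minus strand) and *Nfkbie* (chr17:45555584-45555613, plus strand) had 1 each outside exons. *Tnfaip3* had 2, at chr10:19015516-19015545 and chr10:19015403-19015432 on the minus strand, and *Bcl3* had 1 at chr7:19822734-19822763 on the minus strand.
Nfkb2 site 1: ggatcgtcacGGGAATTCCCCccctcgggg
Nfkb2 site 2: ggggccgaaaGGGGCTTTCCcggctggagc
Nfkb2 site 3: tccgacggcaGGAATGTCCCcacaaaagcc
Nfkb2 site 4: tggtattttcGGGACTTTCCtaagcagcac
Rel site: cgtaagcagcGGGAAATCCCCccccctccc
Nfkbie site: gcagcaaacaGGGGGATTCCggaggggcgg
Tnfaip3 site 1: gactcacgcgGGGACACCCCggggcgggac
Tnfaip3 site 2: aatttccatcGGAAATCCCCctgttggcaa
Bcl3 site: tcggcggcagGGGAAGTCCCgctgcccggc

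*Sirt6-/-* MEFs held more RNA of all 5 subunits than WT MEFs. Of the 5 inhibitors and feedback regulators they held more of 3, *Nfkbia*, *Nfkbie* and *Bcl3*. The samples labelled *Atm-/-* also held more of most members, by smaller folds, with *Nfkb1* at the WT level and *Bcl3* below it. Expression was compared as normalized CPM, a read count scaled to library size, and tested with edgeR on the counts over all genes, a gene being called at a Benjamini-Hochberg adjusted p under 0.05. All 10 members passed the filter on low counts in each comparison. In *Sirt6-/-* against WT, 9 members were called, 8 higher and 1 lower (*Nfkbib*), where 76.6% of the 13206 genes tested were called, 39.2% higher and 37.4% lower. In *Atm-/-* against WT, 9 were called, 8 higher and 1 lower (*Bcl3*), where 68.4% of 13283 genes were called, 34.7% higher and 33.6% lower. A count of calls is thus not particular to these genes in samples so far apart. Their median log2 fold change was 0.86 in *Sirt6-/-* and 0.41 in *Atm-/-*, beside medians of 0.02 and 0.02 over all genes tested. Both comparisons share the WT samples.

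**Figure D1:**
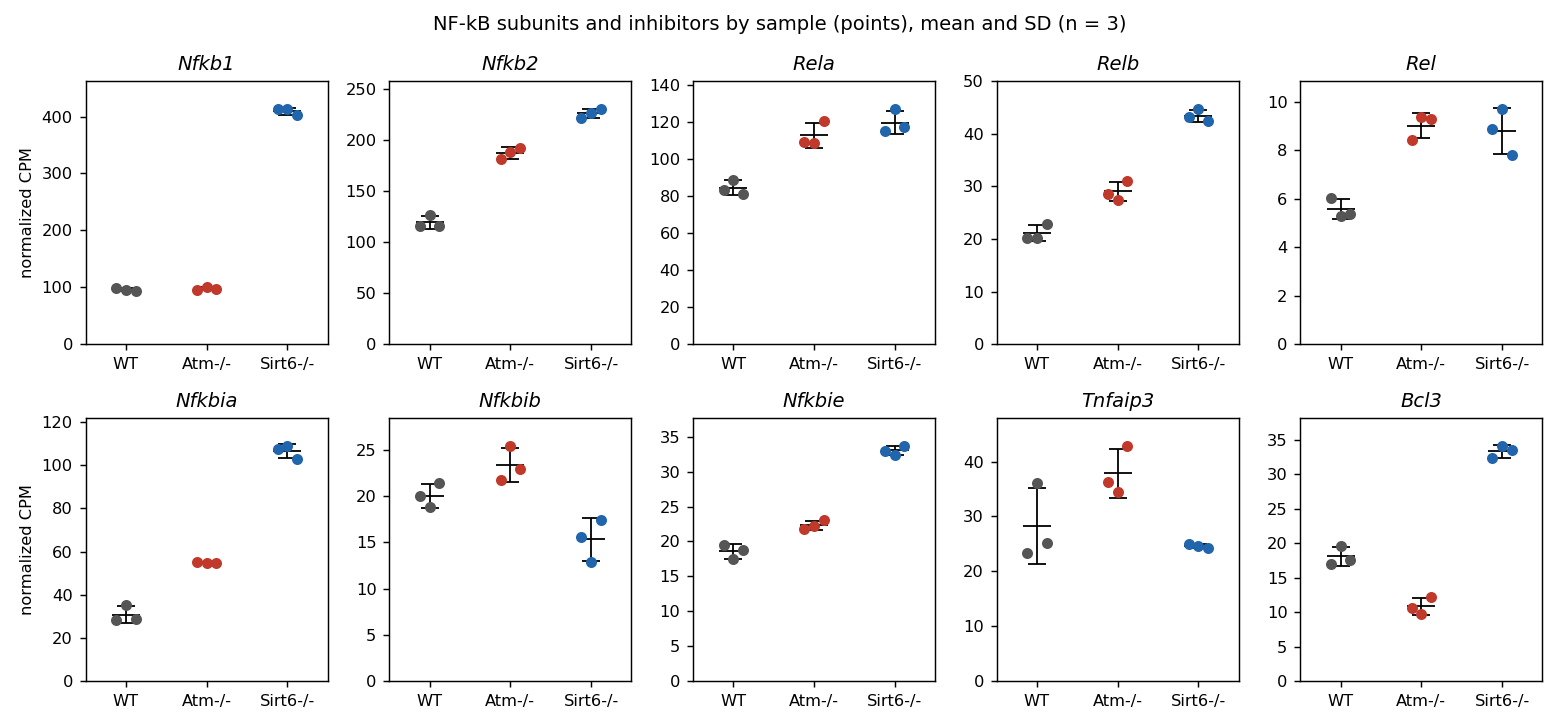
Normalized CPM (y axis, linear from 0, a separate scale for each gene) of the 10 members in the 3 WT, 3 *Atm-/-* and 3 *Sirt6-/-* samples, with points for samples and bars for the mean and SD. *Nfkb1* sits near 100 CPM in WT and *Atm-/-* and above 400 CPM in *Sirt6-/-*, *Bcl3* is lowest in *Atm-/-*, and *Tnfaip3* overlaps between WT and both other groups.

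Among the subunits, *Nfkb1* separated the 2 knockouts most. Its level was 99.3, 96.0 and 93.8 CPM in WT, 96.0, 100.1 and 97.0 CPM in the samples labelled *Atm-/-* and 412.8, 412.6 and 402.3 CPM in *Sirt6-/-*. The *Sirt6-/-* samples lay far above all others, while WT and *Atm-/-* samples overlapped. *Nfkb1* was 4.25-fold higher in *Sirt6-/-* than in WT (log2 fold change 2.09, SE 0.05, adjusted p = 1.2e-14). In *Atm-/-* the log2 fold change was 0.01 (SE 0.05, adjusted p = 0.842), and the direct comparison of *Atm-/-* with *Sirt6-/-* gave -2.06 (SE 0.04, adjusted p = 1.5e-20). The gene lies at chr3:135584655-135691547 on the minus strand (GRCm38), with no overlap of its exons by another annotated gene.

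*Nfkb2*, the p100 gene at chr19:46304320-46312385, was at 115.8, 126.9 and 116.1 CPM in WT, at 181.0, 188.4 and 192.2 CPM in the samples labelled *Atm-/-* and at 221.5, 226.9 and 230.2 CPM in *Sirt6-/-*. The 3 groups stood in order with no overlap. Its log2 fold change was 0.92 (SE 0.05, adjusted p = 3.1e-10) in *Sirt6-/-* and 0.64 (SE 0.05, adjusted p = 4.0e-08) in *Atm-/-*, and the knockouts differed by -0.27 (SE 0.04, adjusted p = 4.7e-06, *Atm-/-* over *Sirt6-/-*). Up to 11.6% of the exon bases of *Nfkb2* overlap *Psd* and a long noncoding RNA on the opposite strand, and the library protocol names no step that keeps strand, so those reads cannot be told apart.

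*Rela*, which encodes p65 (chr19:5637483-5648130), moved less. It was at 83.6, 89.0 and 81.4 CPM in WT, 109.2, 108.5 and 120.8 CPM in the samples labelled *Atm-/-* and 115.1, 127.1 and 117.2 CPM in *Sirt6-/-*. Both knockouts lay above every WT sample and overlapped each other. The log2 fold change was 0.41 (SE 0.06, adjusted p = 2.0e-05) in *Atm-/-* and 0.50 (SE 0.06, adjusted p = 1.2e-06) in *Sirt6-/-*. Between the knockouts it was -0.08 (SE 0.05, adjusted p = 0.170), a difference that was called without *Atm-/-* sample 3, at -0.13 (adjusted p = 0.0414).

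*Relb*, the subunit that pairs with p52 in the noncanonical pathway (chr7:19606217-19629438), rose stepwise from 20.2, 20.2 and 22.9 CPM in WT through 28.6, 27.5 and 31.0 CPM in the samples labelled *Atm-/-* to 43.2, 44.7 and 42.4 CPM in *Sirt6-/-*. No group overlapped another. It was 2.06-fold higher in *Sirt6-/-* than in WT (log2 1.04, SE 0.08, adjusted p = 8.8e-09), 0.45 higher on the log2 scale in *Atm-/-* (SE 0.08, adjusted p = 2.6e-04), and 0.57 lower in *Atm-/-* than in *Sirt6-/-* (log2 fold change -0.57, SE 0.07, adjusted p = 1.5e-07).

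*Rel*, the c-Rel gene best known from lymphocytes (chr11:23736847-23770970), was the scarcest member. Its reads were 193, 166 and 169 in WT, 292, 328 and 315 in the samples labelled *Atm-/-* and 289, 314 and 261 in *Sirt6-/-*, or 6.05, 5.31 and 5.37 CPM, 8.42, 9.36 and 9.30 CPM, and 8.87, 9.70 and 7.83 CPM. Each knockout lay above WT, and they overlapped each other. The log2 fold changes of 0.69 in *Atm-/-* (SE 0.13, adjusted p = 3.6e-04) and 0.66 in *Sirt6-/-* (SE 0.14, adjusted p = 7.4e-04) carry the widest errors among the subunits, and the knockouts differed by 0.04 (SE 0.12, adjusted p = 0.757).

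Of the inhibitors, *Nfkbia*, the gene of IkBα and the promoter printed in full above (chr12:55489410-55492647), followed the same order as *Nfkb2* and *Relb*. Its level was 28.4, 35.4 and 28.6 CPM in WT, 55.1, 54.8 and 54.6 CPM in the samples labelled *Atm-/-* and 107.7, 109.0 and 102.9 CPM in *Sirt6-/-*. The groups did not overlap, and WT sample 2 was the highest of its group. *Nfkbia* was 3.46-fold higher in *Sirt6-/-* than in WT (log2 1.79, SE 0.08, adjusted p = 2.6e-11), rose by 0.83 on the log2 scale in *Atm-/-* (SE 0.08, adjusted p = 5.0e-07), and differed by -0.95 between *Atm-/-* and *Sirt6-/-* (SE 0.05, adjusted p = 2.4e-13).

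*Nfkbib*, which encodes IkBβ (chr7:28758251-28767512), was the only member called lower in *Sirt6-/-* than in WT. It was at 20.0, 18.8 and 21.4 CPM in WT, 21.8, 25.4 and 23.0 CPM in the samples labelled *Atm-/-* and 15.6, 12.9 and 17.4 CPM in *Sirt6-/-*. All *Sirt6-/-* samples lay below the WT samples and all *Atm-/-* samples above them, the latter by a narrow margin (21.8 against 21.4 CPM). The fall in *Sirt6-/-* was -0.39 on the log2 scale (SE 0.11, adjusted p = 0.00570). The rise in *Atm-/-* was 0.21 (SE 0.09, adjusted p = 0.0478), and it was lost in 8 of 13 alternatives, with adjusted p up to 0.185. The knockouts differed by 0.62 (SE 0.10, adjusted p = 1.7e-05). Up to 14.5% of its exon bases overlap *Ccer2* and *Sirt2* on the opposite strand, and those reads cannot be told apart.

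*Nfkbie*, which encodes IkBε (chr17:45555703-45563169), was at 19.5, 17.5 and 18.7 CPM in WT, 21.8, 22.2 and 23.0 CPM in the samples labelled *Atm-/-* and 33.0, 32.4 and 33.7 CPM in *Sirt6-/-*. It therefore rose in the same order as *Nfkbia* with no overlap of groups. The log2 fold change was 0.83 in *Sirt6-/-* (SE 0.08, adjusted p = 1.6e-07) and 0.26 in *Atm-/-* (SE 0.09, adjusted p = 0.0147), with -0.56 between *Atm-/-* and *Sirt6-/-* (SE 0.07, adjusted p = 4.4e-07).

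*Tnfaip3*, the A20 gene (chr10:19000910-19015657), is an inducible κB target but was not higher in *Sirt6-/-*. Its level was 23.3, 36.1 and 25.2 CPM in WT, 36.3, 34.4 and 42.9 CPM in the samples labelled *Atm-/-* and 25.0, 24.7 and 24.2 CPM in *Sirt6-/-*. WT sample 2 stood apart within WT and reached into the range of *Atm-/-*. Against WT the log2 fold change was -0.19 in *Sirt6-/-* (SE 0.13, adjusted p = 0.181). Without WT sample 2 it was 0.0083 (adjusted p = 0.936), and without WT sample 1 it was -0.33 (adjusted p = 0.0240). In *Atm-/-* it was 0.42 (SE 0.13, adjusted p = 0.0129). That call was lost without WT sample 1 (0.30, adjusted p = 0.0605), WT sample 3 (0.34, adjusted p = 0.0654) or *Atm-/-* sample 3 (0.33, adjusted p = 0.0690). Between the knockouts, which do not involve WT, *Tnfaip3* was higher in all 3 *Atm-/-* samples (log2 0.63, SE 0.08, adjusted p = 5.0e-07).

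*Bcl3* (chr7:19808462-19822770) was lower than WT in the samples labelled *Atm-/-* and higher in *Sirt6-/-*. It was at 17.0, 19.6 and 17.6 CPM in WT, 10.5, 9.79 and 12.2 CPM in the samples labelled *Atm-/-* and 32.3, 34.1 and 33.6 CPM in *Sirt6-/-*. None of the groups overlapped, with *Atm-/-* lowest and *Sirt6-/-* highest. *Bcl3* rose by 0.88 on the log2 scale in *Sirt6-/-* (SE 0.08, adjusted p = 1.4e-07) and fell in *Atm-/-*, at -0.74 (SE 0.11, adjusted p = 3.5e-05). It was 3.06-fold lower in *Atm-/-* than in *Sirt6-/-* (log2 -1.61, SE 0.09, adjusted p = 9.4e-13). An antisense gene overlaps 6.51% of its exon bases.

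**Figure D2:**
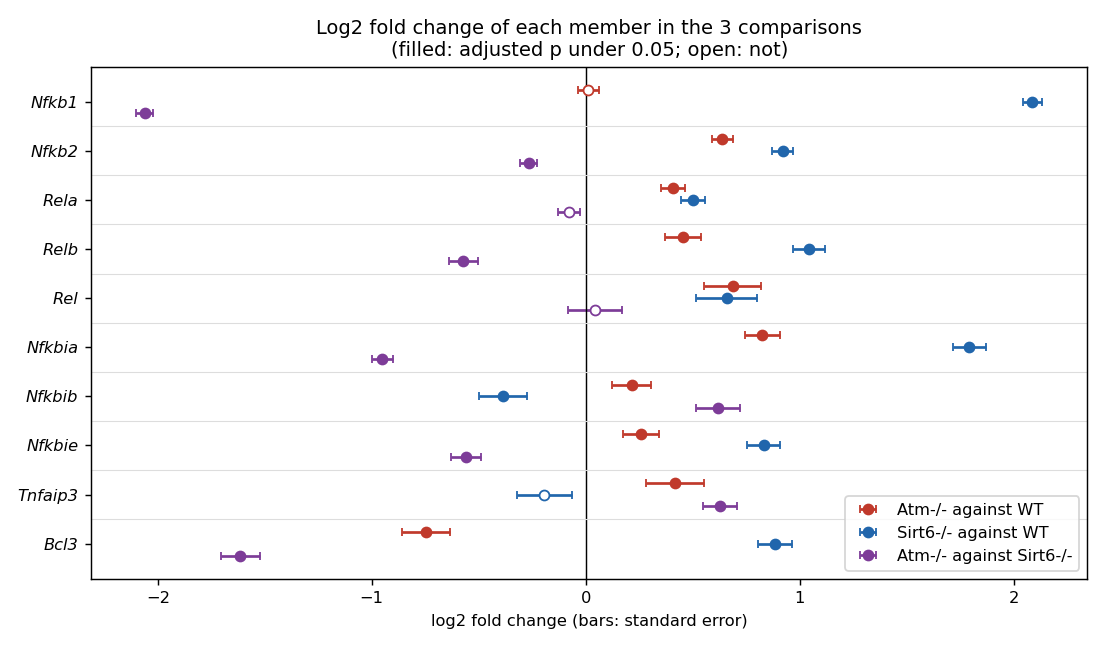
Log2 fold change (x axis) of each member with its standard error, for *Atm-/-* against WT, *Sirt6-/-* against WT and *Atm-/-* against *Sirt6-/-*, filled where the adjusted p was under 0.05. *Nfkb1* and *Nfkbia* extend farthest to the right in *Sirt6-/-*, at 2.09 and 1.79, and *Bcl3* is the only member left of 0 in *Atm-/-* against WT.

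Comparing the knockouts directly, 8 members were called, 6 of them lower in the samples labelled *Atm-/-* than in *Sirt6-/-* (*Nfkb1*, *Nfkb2*, *Relb*, *Nfkbia*, *Nfkbie* and *Bcl3*) and 2 higher (*Nfkbib* and *Tnfaip3*). Of the 13460 genes tested 75.8% were called, 38.0% higher and 37.8% lower. *Rela* and *Rel* did not pass the test. At a change of at least 2-fold, 3 members (*Nfkb1*, *Relb* and *Nfkbia*) were higher in *Sirt6-/-* than in WT, where 29.3% of all genes passed that size in either direction. Higher by that size were 17.5% of all genes and lower 11.8%. By edgeR 0 members reached 2-fold in *Atm-/-* against WT, where 22.5% of genes did, 12.6% higher and 9.85% lower, although 9 members were called without a size limit. Between the knockouts *Nfkb1* and *Bcl3* passed it, both lower in *Atm-/-*, where 25.5% of genes did, 11.3% higher and 14.2% lower. In *Atm-/-* against WT the sample groups did not overlap for 8 members, 7 higher and 1 lower, beside 72.6% of all genes, 37.5% higher and 35.1% lower. In *Sirt6-/-* against WT they did not overlap for 9 members, 8 higher and 1 lower, beside 79.0% of all genes, 40.6% higher and 38.5% lower. Between the knockouts they did not overlap for 8 members, 2 higher in *Atm-/-* and 6 lower, beside 78.2% of all genes, 38.8% higher and 39.4% lower.

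Levels of different members were compared as the deposited RPKM, which divides by gene length. In WT the order was *Nfkb2* (35.2 ± 1.81 RPKM, SD, n = 3), *Rela* (29.5 ± 1.31), *Nfkb1* (22.1 ± 0.597) and *Nfkbia* (18.4 ± 2.34), with samples of *Nfkbib* (9.72), *Bcl3* (9.29) and *Relb* (9.07) overlapping below them. *Nfkbie* (7.39) and *Tnfaip3* (6.01) also overlapped, and *Rel* was last at 2.03 RPKM. In *Sirt6-/-* no neighbours in the order overlapped, and *Nfkb1* came first at 99.6 RPKM, ahead of *Nfkb2* (70.7), *Nfkbia* (67.6) and *Rela* (44.3). *Bcl3* stood at 18.2 RPKM there, above *Nfkbie* (14.0), *Nfkbib* (7.88), *Tnfaip3* (5.58) and *Rel* (3.41). In the samples labelled *Atm-/-* *Nfkb2* (61.3 RPKM), *Rela* (43.7), *Nfkbia* (36.5) and *Nfkb1* (24.9) led, and *Bcl3* (6.21) was next to last, ahead of *Rel* (3.67).

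These levels gave the family a different make-up in each genotype. *Nfkb1* supplied 22.6% ± 0.866 (SD, n = 3) of the summed subunit RPKM in WT, 16.9% ± 0.676 in the samples labelled *Atm-/-* and 41.9% ± 0.691 in *Sirt6-/-*. *Nfkb2* supplied 36.0% ± 0.932, 41.6% ± 0.556 and 29.7% ± 0.706, and *Rela* 30.1%, 29.6% and 18.6%. The group whose largest part was p105 RNA was therefore *Sirt6-/-*, while p100 RNA was the largest part in the others. *Nfkbia* supplied 51.7% ± 4.45 of the summed RPKM of the 3 IkB genes in WT, 61.8% ± 1.21 in *Atm-/-* and 75.6% ± 1.75 in *Sirt6-/-*, and *Nfkbib* 27.5%, 21.4% and 8.82%. With 3 samples against 3, a two-sided exact permutation test cannot give a p below 0.1, and no test was run on these shares.

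The sums themselves grew together. Summed subunit RPKM was 97.8 ± 2.57 in WT, 148 ± 4.88 in the samples labelled *Atm-/-* and 238 ± 4.33 in *Sirt6-/-* (SD, n = 3), and summed IkB RPKM was 35.5 ± 1.44 in WT, 58.1 to 60.1 in *Atm-/-* and 89.5 ± 1.43 in *Sirt6-/-*. Their ratio, subunits over IkB, changed little beside those sums. It was 2.76 ± 0.0496 in WT, 2.50 ± 0.0875 in *Atm-/-* and 2.66 ± 0.0517 in *Sirt6-/-*. Samples ran from 2.714 to 2.812, from 2.437 to 2.601 and from 2.606 to 2.709, so the groups did not overlap, by narrow margins. *Nfkbia* against *Rela* alone did shift, from a ratio of 0.622 ± 0.0523 in WT through 0.836 ± 0.0528 in *Atm-/-* to 1.53 ± 0.0692 in *Sirt6-/-*. Such ratios depend on the gene lengths the authors used and concern RNA, not protein. RPKM carry no TMM factors, which were 0.9424 to 0.9475 in WT, 1.003 to 1.009 in *Sirt6-/-* and 1.051 to 1.054 in *Atm-/-*. Sums compared between groups therefore include that difference in scaling. *Nfkb1*, for which normalized CPM overlapped, stood at 22.1 RPKM in WT and 24.9 in *Atm-/-*.

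**Figure D3:**
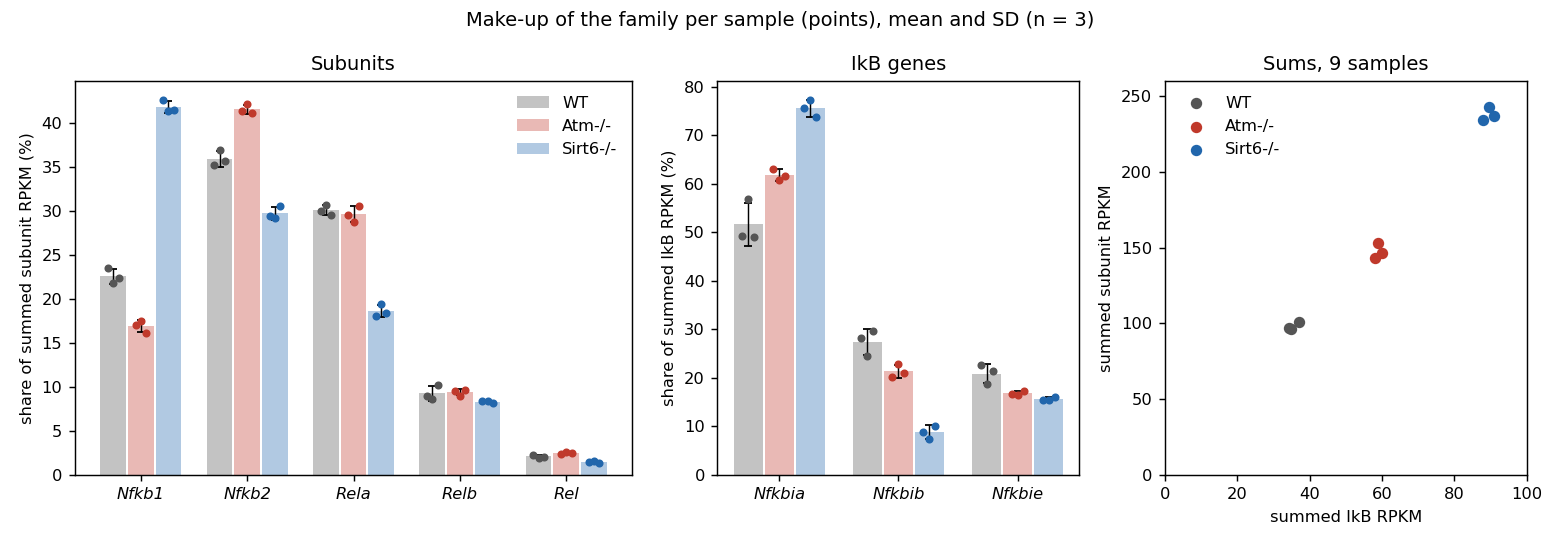
Share of each subunit in the summed subunit RPKM and of each IkB gene in the summed IkB RPKM (bars, mean; error bars, SD; points, samples), and the 2 sums against each other for the 9 samples. *Nfkb1* is the largest share in *Sirt6-/-* at 41.9%, and the 3 groups line up in the plot of sums, WT lowest and *Sirt6-/-* highest. The sums carry no TMM factors.

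The rest of the pathway was described by lists of genes at each step, counting calls in the same fits. These lists were chosen with earlier results of these data known. Each count is read against the share of all genes tested that was called, 34.7% higher and 33.6% lower in *Atm-/-*, and 39.2% higher and 37.4% lower in *Sirt6-/-*. Of 13 ligands 6 had enough reads to test in each comparison with WT. *Tnf*, the main inflammatory activator of the pathway, had 0 reads in every WT sample, 0, 0 and 2 in the samples labelled *Atm-/-* and 7, 0 and 0 in *Sirt6-/-*. *Il1a* had 0, 12 and 2 reads in WT and 23, 17 and 16 in *Sirt6-/-* (log2 1.92, adjusted p = 0.0265). In *Atm-/-* the median log2 fold change of the tested ligands was 0.18, with *Il33*, an alarmin, up from 171, 156 and 139 reads in WT to 6427, 9054 and 5625 (log2 5.36). In *Sirt6-/-* the median was 0.72, *Il33* being down at 36, 52 and 38 reads (log2 -1.94) and *Tnfsf11*, which encodes RANKL, up (log2 1.98). The ligands called higher in *Sirt6-/-* numbered 3 of 6, but 1 to 2 when any 1 sample was left out, and 1 without WT sample 3 or without any of the 3 *Sirt6-/-* samples. In *Atm-/-* 1 was called higher and 2 lower, with 2 called higher without WT sample 1, and 1 called lower without WT sample 1, *Atm-/-* sample 2 or *Atm-/-* sample 3.

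Receptors that feed the pathway were called in both directions in each knockout. Of 16 tested among 19, 9 rose and 6 fell in *Sirt6-/-* (median log2 0.57), beside 39.2% and 37.4% of all genes. In the samples labelled *Atm-/-* 5 of 16 rose and 8 fell (median -0.42), beside 34.7% and 33.6% of all genes, and the difference between these counts was not tested. *Tlr2*, a receptor for bacterial lipoproteins, went from 407, 314 and 404 reads in WT to 9071, 9152 and 9569 in *Sirt6-/-* (log2 4.57) and was at 370, 327 and 324 in *Atm-/-* (log2 -0.28, adjusted p = 0.0680). *Tlr7*, which senses single-stranded RNA, fell in both, to 6, 4 and 4 reads in *Sirt6-/-* from 550, 435 and 478 in WT. The interleukin-1 receptor *Il1r1* was up in *Sirt6-/-* (log2 0.64) and down in *Atm-/-* (-0.62), and *Tnfrsf12a*, the TWEAK receptor, went the other way (-1.20 and 0.45). *Tnfrsf1a*, the main TNF receptor, was lower in *Atm-/-* (-0.54) and had a log2 fold change of -0.05 in *Sirt6-/-* (adjusted p = 0.371). *Tnfrsf11a*, the receptor for RANKL, had 1, 0 and 4 reads in WT, 196, 182 and 207 in *Atm-/-* and 135, 143 and 155 in *Sirt6-/-*. *Ltbr*, the lymphotoxin β receptor, fell by 0.31 and by 0.18 on the log2 scale in *Atm-/-* and *Sirt6-/-*.

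Between receptors and IKK, the 29 adaptors, ubiquitin ligases and kinases were split in direction. In *Sirt6-/-* 10 rose and 12 fell (median log2 -0.03), and in the samples labelled *Atm-/-* 6 rose and 9 fell (median -0.01). With read totals in place of TMM factors these splits turned to 12 and 9, and to 13 and 5, so no direction is given for the list. Without *Atm-/-* sample 1 or sample 3 the number higher in *Atm-/-* was 3. Of all genes 39.2% were called higher and 37.4% lower in *Sirt6-/-*, and 34.7% and 33.6% in *Atm-/-*. *Traf1*, itself a κB target, went from 9, 18 and 10 reads in WT to 288, 256 and 256 in *Atm-/-* and 330, 441 and 361 in *Sirt6-/-* (log2 4.28 and 4.87). *Ripk2*, the kinase below NOD receptors, rose in *Sirt6-/-* (log2 2.56) and had a log2 fold change of 0.18 in *Atm-/-* (adjusted p = 0.0971). *Traf2* passed the test in neither knockout against WT (log2 -0.09 in *Atm-/-* and 0.12 in *Sirt6-/-*), and *Traf3*, which holds back the noncanonical kinase, fell in both (-0.18 and -0.35). *Map3k14*, that kinase (NIK), was at log2 0.27 in *Atm-/-* (adjusted p = 0.0272), with samples that overlapped WT, and at -0.03 in *Sirt6-/-* (adjusted p = 0.789).

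All 5 IKK-type kinase genes were tested. *Ikbkb* (IKKβ) and *Ikbkg* (the regulatory subunit) rose in both knockouts, by log2 0.66 and 0.34 in the samples labelled *Atm-/-* and by 0.41 and 0.47 in *Sirt6-/-*. *Chuk* (IKKα) was lower in both, at -0.17 and -0.49, although the first of these calls was lost in some alternatives, so that 1 of the 5 genes instead of 2 was lower in *Atm-/-* without WT sample 3 or *Atm-/-* sample 2. *Ikbke* divided them, at -0.98 in *Atm-/-* and 0.79 in *Sirt6-/-*, with -1.75 in the direct comparison. On the route from DNA damage through ATM to IKK, 4 of 10 genes rose and 2 fell in *Atm-/-*, a split of 6 and 0 with read totals, and 7 rose and 2 fell in *Sirt6-/-*. This list counts *Atm* itself, which was its largest rise in *Atm-/-* (log2 1.04). It also shares *Ikbkg*, *Ripk1*, *Map3k7*, *Traf6* and *Birc2* with the lists of IKK genes and adaptors, so those genes are counted again. Without WT sample 3, *Sirt6-/-* sample 1 or *Sirt6-/-* sample 3 the number lower in *Sirt6-/-* was 1. The shares over all genes were 34.7% higher and 33.6% lower in *Atm-/-*, and 39.2% and 37.4% in *Sirt6-/-*. *Ripk1*, which joins the nuclear complex with IKKγ, rose in both (log2 0.55 and 0.56), with a difference between the knockouts of 0.01 (SE 0.05, adjusted p = 0.881). *Parp1* fell in both, at -0.22 and -0.73.

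Other negative regulators and atypical IkB proteins were listed together, apart from the members, so the counts are not of inhibitors alone. Of 20 tested in *Sirt6-/-* 10 rose and 4 fell (median log2 0.20), and of 19 tested in the samples labelled *Atm-/-* 6 rose and 6 fell (median -0.00), or 9 and 3 with read totals. Of all genes 39.2% rose and 37.4% fell in *Sirt6-/-*, and 34.7% rose and 33.6% fell in *Atm-/-*, and leaving out 1 sample moved the number lower in *Sirt6-/-* between 3 and 6. *Nfkbid*, an atypical IkB, had 2, 0 and 4 reads in WT and 81, 107 and 76 in *Sirt6-/-*. *Nfkbiz*, like *Bcl3* an atypical nuclear IkB, rose in *Sirt6-/-* (log2 1.38) and fell in *Atm-/-* (-0.43). *Tnip1*, a partner of A20, did likewise (0.68 and -0.21), and *Tnip3* rose in *Atm-/-* (3.47) but did not pass the test in *Sirt6-/-* (-0.98, adjusted p = 0.0998). *Cyld*, a deubiquitinase, passed the test in neither (0.10 and -0.05). *Pdlim2*, which promotes the breakdown of nuclear p65, fell in both knockouts, at -1.09 in each, and *Traf4* fell in *Sirt6-/-* (-1.17).

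**Figure D4:**
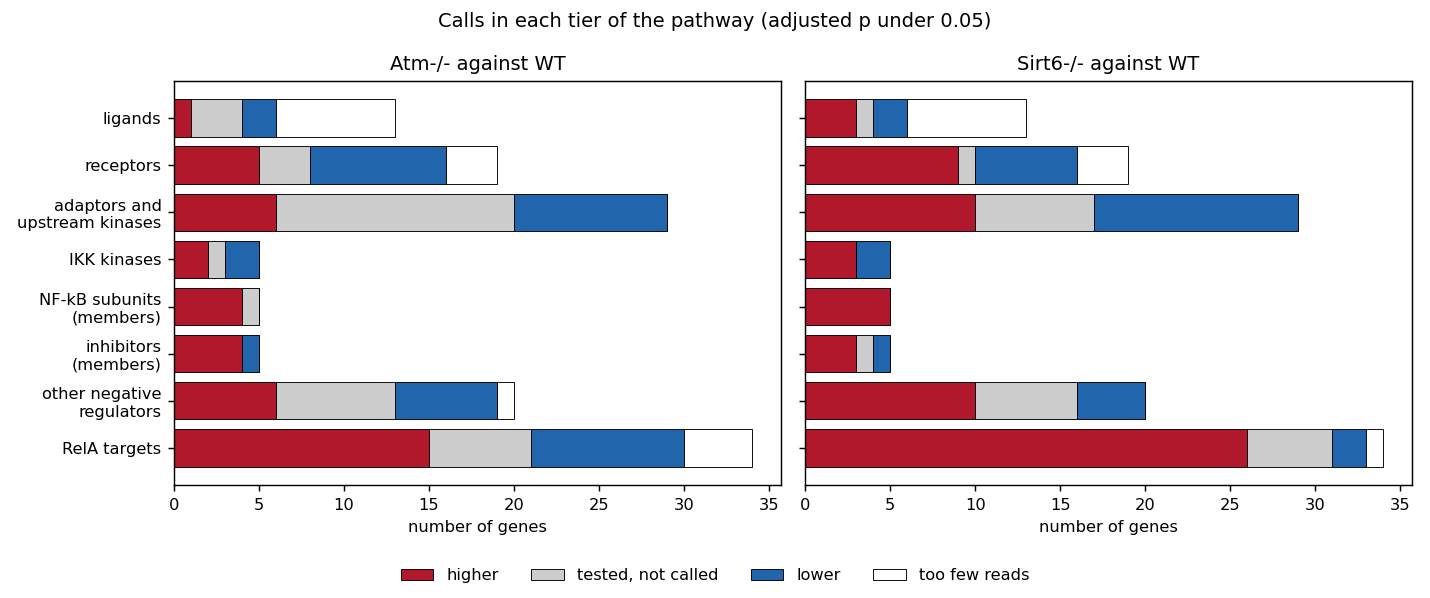
Number of genes (x axis) called higher, called lower, tested but not called, or with too few reads to test, for each step of the pathway, in *Atm-/-* against WT and *Sirt6-/-* against WT. Of the 13 ligands 7 had too few reads in each comparison, and the RelA target list in *Sirt6-/-* is mostly higher, 26 of 33 tested. The lists were chosen with earlier results of these data known.

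Genes known as targets of RelA-containing dimers mostly rose in *Sirt6-/-* and were divided in direction in the samples labelled *Atm-/-*. The list was chosen with earlier results of these data known, so its counts are a description and not an independent test. In *Sirt6-/-* 26 of 33 tested among 34 rose and 2 fell (4 without WT sample 2), where 39.2% of all genes rose and 37.4% fell. The median log2 fold change was 1.75 beside 0.02 over all genes tested. Some of these genes, such as *Csf2*, had few or no reads in WT and passed the filter through their *Sirt6-/-* reads. The count of 26 and the median of 1.75 include them. With at least 10 counts required in every sample, 18 were called higher and 2 lower in *Sirt6-/-*, and 11 higher and 9 lower in *Atm-/-*. The shares over all genes given here are those of the main filter, not of this stricter one. In the samples labelled *Atm-/-* 15 of 30 rose and 9 fell (median 0.19), and in the direct comparison 22 of 33 were lower in *Atm-/-* and 9 higher (median -1.08). The shares over all genes were 34.7% higher and 33.6% lower in *Atm-/-* against WT, and 38.0% higher and 37.8% lower in the direct comparison. *Nos2*, the inducible nitric oxide synthase, had 19, 13 and 6 reads in WT, 17, 8 and 8 in *Atm-/-* and 9503, 9647 and 11102 in *Sirt6-/-* (log2 9.57). Among chemokines *Cxcl1* stood at 30.9 ± 4.69 CPM in WT, 49.6 ± 6.73 in *Atm-/-* and 2105 ± 114 in *Sirt6-/-* (SD, n = 3), and *Ccl2* rose in both (log2 0.25 in *Atm-/-* and 2.40 in *Sirt6-/-*). *Il6* fell in *Atm-/-* (-3.76) and rose in *Sirt6-/-* (1.90). *Csf2* had 0 reads in WT and 16, 28 and 27 in *Sirt6-/-*, at least 7.59-fold higher against a floor of 3 counts per library.

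Individual targets did not follow one pattern. *Icam1*, an adhesion molecule, had 6, 0 and 4 reads in WT, 48, 48 and 66 in the samples labelled *Atm-/-* and 95, 103 and 121 in *Sirt6-/-*. *Ccl5* was highest in *Atm-/-*, at 308, 267 and 216 reads against 63, 64 and 78 in *Sirt6-/-* and 2, 2 and 2 in WT. *Vcam1*, another adhesion molecule of the list, fell in both, from 32014, 29687 and 32111 reads in WT to 3707, 3809 and 3231 in *Atm-/-* and 6834, 7159 and 7670 in *Sirt6-/-*. *Sod2*, the mitochondrial superoxide dismutase, rose in *Sirt6-/-* (log2 0.84) and fell in *Atm-/-* (-0.23). *Birc3*, which encodes cIAP2, rose in *Sirt6-/-* (1.35) and was at -0.25 in *Atm-/-* (adjusted p = 0.0581). *Bcl2l1*, an inhibitor of apoptosis, fell in both (-0.44 and -1.03). Of 6 genes linked to RelB and p52 dimers, *Cxcl12* was the one with reads enough to test in both, and it fell in *Atm-/-* (-2.62) and in *Sirt6-/-* (-2.07), where *Relb* and *Nfkb2* had risen.

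**Figure D5:**
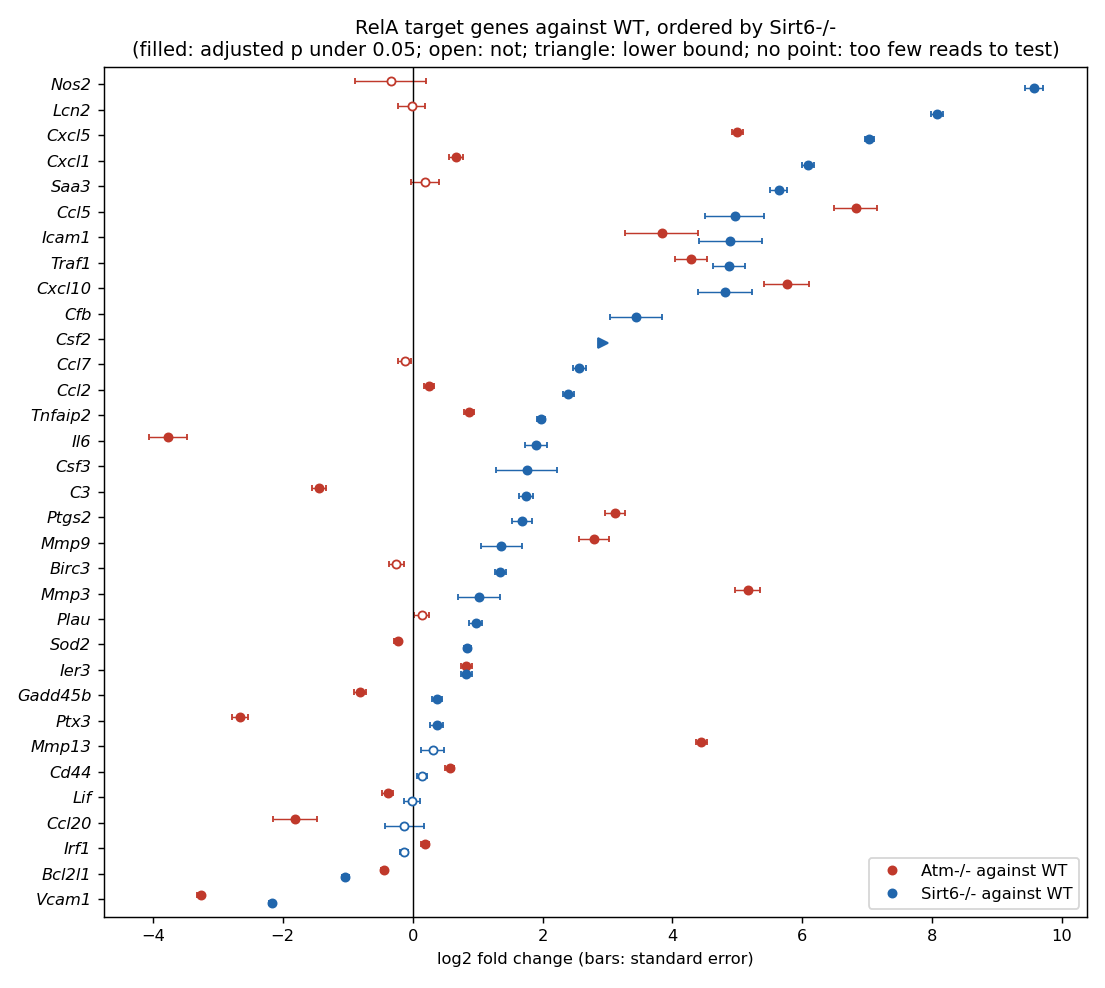
Log2 fold change against WT (x axis, with standard errors) of the RelA target genes in *Atm-/-* and *Sirt6-/-*, ordered by *Sirt6-/-*; filled points passed the test, and the triangle is the lower bound of *Csf2*. Most points of *Sirt6-/-* lie to the right of 0, from *Nos2* at 9.57 down to *Vcam1* at -2.17, whereas those of *Atm-/-* lie on both sides. The list was chosen with earlier results of these data known.

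The κB matches of 3 targets that differed in response are shown for comparison with those of the members. *Cxcl1* (chr5:90891164-90891193), *Il6* (chr5:30013060-30013089) and *Sod2* (chr17:13007746-13007775), all on the plus strand, each held 1, and of 24 target genes with a window 10 (41.7%) did.
Cxcl1 site: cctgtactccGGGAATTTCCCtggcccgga
Il6 site: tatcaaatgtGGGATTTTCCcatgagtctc
Sod2 site: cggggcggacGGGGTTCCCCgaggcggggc

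Several listed genes are also read out by leukocytes, so markers of other cell types were measured beside them. Of 10 macrophage and leukocyte markers *Ptprc*, *Emr1*, *Itgam*, *Fcer1g*, *Tyrobp* and *Cx3cr1* stayed under 1 RPKM in every group, and the summed level was 11.3 to 12.3 RPKM in WT, 15.95 to 17.6 in the samples labelled *Atm-/-* and 14.1 to 17.0 in *Sirt6-/-*. Most of it in the knockouts was *Cd14*, at 10.1 and 9.58 RPKM. Summed endothelial markers reached 2.43 RPKM at most, and epithelial markers ran from 11.1 to 13.9 RPKM in WT, 28.5 to 31.9 in *Atm-/-*, where *Krt18* was 21.1, and 8.85 to 11.2 in *Sirt6-/-*. Summed fibroblast markers were 6182 to 6725 RPKM in WT, 2684 to 2742 in *Atm-/-* and 4701 to 4728 in *Sirt6-/-*. Of the 10, *Lum* was under 1 RPKM in all groups (0 in *Atm-/-*) and *Thy1* under 1 RPKM in *Sirt6-/-*. Summed fibroblast markers were thus highest in WT and lowest in *Atm-/-*, and the summed subunit and IkB RPKM was lowest in WT and highest in *Sirt6-/-*. A large part of the marker sum was *Vim* alone, at 2125 RPKM in WT, 1629 in *Atm-/-* and 1534 in *Sirt6-/-*. Of 9 fibroblast markers tested, 1 rose and 8 fell in *Atm-/-*, beside 34.7% and 33.6% of all genes. In *Sirt6-/-* 3 rose and 6 fell, beside 39.2% and 37.4%. The part of these markers in the NF-kB differences was not tested.

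The genes whose pattern over the 9 samples was most like each member's were found by the smallest root mean square difference of mean-centred log2 CPM among 13757 genes. *Nfkb1* was nearest to *Gypc* (0.0977) and *Gatsl2* (0.112), *Nfkbia* to *Prkca* (0.0812) and *Gpr124*, and *Bcl3* to *Sema5a* (0.111) and *Amot*. *Nfkb2* was nearest to *Fasn* (0.0519) and *Ttc37*, *Rela* to *Armc5* (0.0546) and *Sbf1*, *Relb* to *Klhl9* and *Phpt1*, and *Rel* to *B230219D22Rik* and *Rhebl1*. For *Nfkbib* they were *Hes6* and *Limd1*, for *Nfkbie* *Rgp1* and *Eef2k*, and for *Tnfaip3* *Adat2* (0.118) and *Casp2*. No member was among another's nearest pair.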

How the data were processed

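Poly(A)-selected RNA was sequenced from 9 MEF samples, 3 per genotype. For each sample the authors deposited whole-number read counts of 24341 genes, without normalization. The authors also deposited RPKM, made from the counts by dividing by a listed gene length and a read total. The labels' processing notes name the build mm10, and the aligner and counting tool are not given in the sources used here. For every comparison the 6 samples concerned were tested alone in edgeR 4.0.16 (R 4.3.3), using filterByExpr, TMM, glmQLFit with a prior count of 0.125 and glmQLFTest. P-values were adjusted with the Benjamini-Hochberg method over all genes tested, and a gene was called at an adjusted p under 0.05. Standard errors were derived from the F statistic. CPM were scaled by TMM factors. RPKM, which carry no TMM factors, served for levels between genes, for shares, sums and ratios of members, and for markers.

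The members and the pathway lists were chosen with earlier results of these data known. The genes named outside the family were a fixed set of pathway genes, the largest called rise and fall of each list and comparison, and the 2 genes most like each member. *Csf2* and *Bcl2l1* were named after their values were seen.

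Positions of genes were taken from GENCODE M21 (GRCm38), and promoter windows were those of RefSeq (GRCm38.p6). The fit was tested on simulated data. Alternatives were DESeq2 1.42.0, other scaling, no filter, a stricter filter of 10 counts, a 2-fold limit, a replicate block and leaving out each sample. Counts for the lists under these alternatives were added after seeing the data. The labels number the samples of each genotype without saying that a number marks a shared culture or batch. The floor of 3 counts per library covers counting error only, whereas standard errors and SDs include the spread among samples.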

Additional observations from a re-analysis of the deposited data

Results flagged for a closer look

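2 members were called in opposite directions in the 2 knockouts, and the difference between the knockouts was itself tested in the direct comparison. *Nfkbib*, the IkBβ gene, was lower in *Sirt6-/-* and higher in the samples labelled *Atm-/-* than in WT, and differed by 0.62 between them (log2, *Atm-/-* over *Sirt6-/-*). *Bcl3* was higher in *Sirt6-/-* and lower in the samples labelled *Atm-/-*, with a difference of -1.61. The call of *Nfkbib* in *Atm-/-* against WT (adjusted p = 0.0478) was lost in 8 of 13 alternatives, with adjusted p up to 0.185, the replicate block among them. Both sets of WT comparisons share the WT samples, which the direct comparison does not use. In both genes the 3 *Atm-/-* and 3 *Sirt6-/-* samples did not overlap.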

How the results depend on the processing

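Over 390 repeats of the members' log2 fold changes under 13 alternatives, the 2-fold limit aside, 373 kept their direction and side of the threshold, 11 lost the call, 3 gained it and 3 changed sign. The changes of sign were all in values not called: *Nfkb1* in *Atm-/-* against WT (-0.0070 to 0.0357 when 1 sample was left out), *Tnfaip3* in *Sirt6-/-* against WT (-0.33 to 0.0083) and *Rel* between the knockouts (-0.0315 to 0.1196). Requiring a 2-fold change as well left 0 members called in *Atm-/-* against WT, 0 higher and 0 lower. It left 3 in *Sirt6-/-* against WT, 3 higher and 0 lower, and 2 in *Atm-/-* against *Sirt6-/-*, 0 higher and 2 lower. Of the RelA targets it left 9 higher and 5 lower in *Atm-/-* against WT, and 5 higher in *Atm-/-* against *Sirt6-/-*. Leaving out 1 sample, there were 7 to 9 members called in *Atm-/-* against WT, 9 to 10 in *Sirt6-/-* against WT and 8 to 9 in *Atm-/-* against *Sirt6-/-*. Members lower in *Sirt6-/-* against WT ranged from 1 to 2 (2 without WT sample 1), and RelA targets lower there from 2 to 4 (4 without WT sample 2). With read totals in place of TMM factors the median of all genes moved by 0.16 on the log2 scale in *Atm-/-* against WT, and the share of calls that were higher went from 50.8% to 64.9%. *Nfkb1* was then called there (0.18, adjusted p = 0.00525), and the directions of the other members held. With the sample number as a replicate block, 8, 9 and 8 members were called in the 3 comparisons, *Nfkbib* in *Atm-/-* against WT being lost (0.21, adjusted p = 0.0668). Deviations of same-numbered samples correlated at -0.0201 to 0.0307, and those of differently numbered samples at -0.033 to 0.0224. Between the knockouts the same-numbered values (0.0179 to 0.0307) lay above the others (-0.0318 to 0.000302). All of these correlations were small, and the numbers were not taken as pairs in the main fits. Of 122 called values of named genes outside the family, 14 lost the call under at least 1 alternative and 0 changed sign. These were 9 in *Atm-/-* against WT (*Chuk*, *Erc1*, *Map3k14*, *Parp1*, *Sirt6*, *Sod2*, *Tnfsf11*, *Tnip1* and *Traf3*), 3 in *Sirt6-/-* against WT (*Erc1*, *Il1a* and *Ltbr*) and 2 between the knockouts (*Il1a* and *Tnfrsf11a*). Genes with few reads, such as *Il1a* and *Tnf*, are limited by depth. The cause of these shifts was not tested.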

Other observations

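WT sample 2 differed from the other WT samples in several listed genes, in reads of near-equal libraries. It had the most *Tnfaip3* (1129 against 743 and 794), *Nfkbia* (1106 against 906 and 900), *Nfkbiz* (2981 against 2335 and 2279) and *Il6* (280 against 176 and 178). It also had the fewest reads of *Cxcl1* (821 against 1136 and 972), *Ccl2* (3683 against 4680 and 4168) and the fibroblast collagen *Col3a1* (50800 against 81375 and 78873). Of the other inhibitors and feedback regulators of the family, *Bcl3* was also highest in that sample (614 reads against 543 and 554). *Nfkbib* (588 against 637 and 674) and *Nfkbie* (546 against 623 and 589) were lowest there, so these regulators did not move together. The genes named in this paragraph were picked after their values were seen.

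*Il1rl1*, the receptor for IL-33, was higher in both knockouts, by 2.99 on the log2 scale in the samples labelled *Atm-/-* and by 5.22 in *Sirt6-/-*, while its ligand *Il33* moved in opposite directions (5.36 and -1.94). *Mmp3*, a matrix protease of the target list, had 51, 77 and 26 reads in WT, 1863, 2308 and 1904 in the samples labelled *Atm-/-* and 91, 124 and 110 in *Sirt6-/-*. *Lcn2*, which encodes an iron-trapping lipocalin, had 96, 85 and 79 reads in WT, 94, 110 and 79 in the samples labelled *Atm-/-* and 21882, 25887 and 25083 in *Sirt6-/-*. *Il1rl1* and *Lcn2* were named after their values were seen.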
